A study of Mus musculus with 6 samples.

Results

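A set of 33 germline and meiosis genes was examined in the DNA methylome of mouse CD8+ T cells. They were listed by name, as germline genes thought to be silenced by promoter methylation, out of 20698 autosomal protein-coding genes, and all 33 were found in the annotation. DNA methylation was measured by reduced representation bisulfite sequencing (RRBS), in which DNA is cut by MspI at CCGG, so that CpG-rich DNA is read preferentially, and bisulfite treatment tells methylated from unmethylated cytosine. The cells came from LNs of C57BL/6N mice aged 13 weeks, in 3 genotypes with 2 libraries each: wild-type (wt, here WT), mice with a human STAT5B transgene (hSTAT5B +/T), and mice with a human STAT5B transgene that carries the N642H change (hSTAT5B N642H +/T). Both transgenes are driven by the Vav1 promoter throughout the blood system, each in a single selected line, and the hSTAT5B N642H mice were diseased when the cells were taken. Each library came from 1 mouse, and CD8+ cells were sorted with magnetic beads.

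Germline genes make the proteins with which germ cells silence transposons through piRNAs, pair and recombine their chromosomes in meiosis, and regulate germ cell RNA. In the early embryo many of them gain DNA methylation at CpG-rich promoters, and they are a standard example of CpG-rich promoters that stay methylated in somatic cells, whereas most other CpG-rich promoters are unmethylated. A complex with E2F6, MGA, and MAX binds an E2F motif and an E-box at many of these promoters and takes part in their repression.

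Only CpGs read 5 or more times in every library were used, and a gene's level was their plain average, each CpG with equal weight. The promoter was taken as 1 kb either side of the transcription start of the principal transcript, and the gene body as the rest of the gene. Of the 33 genes, 23 had at least 3 such CpGs in the promoter and 19 had at least 3 in the gene body, compared with 13111 and 13814 of all genes. Brdt had 2 promoter CpGs, and 9 genes had none in the promoter (Syce1, Tex15, Piwil1, Stk31, Stra8, Rec8, Dnmt3l, Msh4, and Dmc1). Dmc1, the recombinase of meiotic strand exchange, was the only gene with no CpG in either window. The libraries held 2597893 to 3445555 CpGs and 43291086 to 67007186 CpG reads, with a median of 5 to 11 reads per CpG. Few marker genes of the sorted cells could be checked: of 7 T cell markers only Cd8b1 and Cd5 had 3 promoter CpGs, and both were lowest in hSTAT5B N642H. Cd8b1, with 6 CpGs, was at 37.8% and 37.8% in WT, 18.8% and 17.5% in hSTAT5B, and 8.51% and 11.8% in hSTAT5B N642H, and Cd5, with 3, was at 52.7% and 72.4%, 53.3% and 69.7%, and 42.1% and 41.2%. These markers of the sorted cells thus differed between the groups, and their part in the values of the germline genes was not tested. The B cell marker Cd79b was between 21.1% and 26.7%, the CD4 lineage gene Zbtb7b was between 0.628% and 4.23%, and no myeloid marker reached 3 CpGs.

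Germline gene promoters were methylated in all 3 genotypes. Of the 23 promoters, 20 were at 50% or more in all 6 libraries, compared with 8.98% of all 13111 promoters, and 1 was under 10% in all 6, compared with 70.3% of all promoters. The genes were listed for this pattern, so the shares describe the set and are no test of it. The median level of the 23 promoters was 95.5% ± 0.851 in WT, 95.2% ± 0.0814 in hSTAT5B, and 94.0% ± 1.66 in hSTAT5B N642H (SD, n = 2 libraries each). The median of all promoters was 3.09% ± 0.0271, 3.16% ± 0.022, and 3.22% ± 0.0454 in the same order. Dazl stood just inside the 50% limit, with 50.1% in its lowest library, and Stag3 was the nearest gene outside it, at 29.2% in its highest library. The other 19 promoters inside the limit were all above 76% in every library. RNA was not analysed here, so that the silence of these genes in T cells was not measured.

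These promoters were methylated in the high as well as the intermediate class of CpG density. Promoters were put into classes by the CpG content of their sequence: in the high class, a 500 bp stretch has over 55% GC and an observed/expected CpG ratio over 0.75, and in the low class no stretch has a ratio over 0.48. In the high class, 10 of 13 germline promoters were at 50% or more in all 6 libraries, whereas 1.12% of the 9923 promoters of this class were, and 1 of 13 was under 10%, whereas 83% of the class was. In the intermediate class, all 10 germline promoters were at 50% or more, compared with 21% of 2378 promoters. No germline promoter with 3 CpGs was in the low class, where 70% of 810 promoters were at 50% or more. Across the 23 genes, the promoter level and the CpG ratio of the window had a Pearson's r of -0.38 and a Spearman's rho of -0.28, values that describe genes and not replicates.

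**Figure D1:**
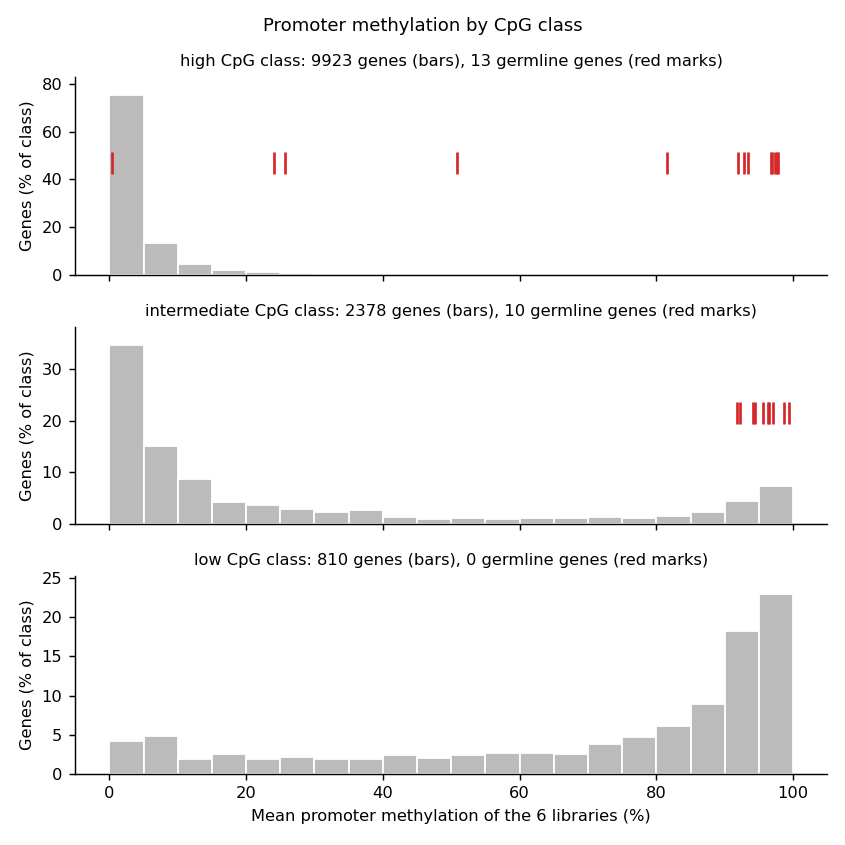
Distribution of the mean promoter level of the 6 libraries (x axis, %) among all genes with at least 3 promoter CpGs (grey bars, % of the genes in the class), by CpG class, with each germline gene as a red mark at a fixed height. In the high class, 10 of 13 germline genes lie at 50% or more, where 1.30% of the class lies by the same mean, and in the intermediate class all 10 lie above 91%.

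In most of these promoters nearly all measured CpGs were highly methylated. The measured CpGs often covered a small part of the window, such as 181 to 209 bp after the start in Sycp2. The 24 promoters with any CpG held 302 measured CpGs, of which 248 had a mean level of 80% or more over the 6 libraries, 39 were at 20% or less, and 15 lay between. All 39 CpGs of low level belonged to Dazl, Stag3, Smc1b, and Meiob. In the other 20 genes, 223 of 232 CpGs were at 80% or more. In the 500 bp after the start, the median of the gene means was 96.5% over 19 germline genes and 2.21% over 11372 genes of all kinds, and in the 500 bp before the start it was 90.6% over 13 germline genes and 2.35% over 8891 genes.

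Among genes of piRNA and germ cell RNA metabolism, Ddx4, the RNA helicase known as mouse vasa homolog, had the most CpGs at a uniformly high level. Its promoter had 29 CpGs at 97.5% and 96.3% in WT, 98.3% and 97.3% in hSTAT5B, and 95.9% and 96.4% in hSTAT5B N642H, and its lowest CpG had a mean of 90.3%. The library values of hSTAT5B N642H overlapped those of WT and lay below those of hSTAT5B. Its promoter (GRCm38, chr13:112652252-112652551, minus strand) is shown because it holds both motifs of the E2F6 complex close to the start. In this and the following promoters, from 250 bases before the start to 50 from it, capitals mark the E-box CACGTG and the E2F core TCCCGC on either strand (TCCCGC on the opposite strand reads GCGGGA).
Ddx4: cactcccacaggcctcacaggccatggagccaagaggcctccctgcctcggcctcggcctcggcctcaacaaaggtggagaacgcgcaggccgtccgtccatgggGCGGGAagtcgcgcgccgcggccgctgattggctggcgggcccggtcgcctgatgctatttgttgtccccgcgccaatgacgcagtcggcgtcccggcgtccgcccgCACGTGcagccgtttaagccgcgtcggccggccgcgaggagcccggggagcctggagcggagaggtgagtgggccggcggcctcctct

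The CpG inside the E-box of Ddx4, 35 bp before the start, was at 94.9% and 90.8% in WT, and its mean over all libraries was 92.6%. The CpG inside its E2F core, 143 bp before the start, had a mean of 97.4%. Both motifs were thus methylated in all 6 libraries. The remaining genes of piRNA metabolism were as follows. Mael, a protein of the piRNA pathway, had 17 CpGs with library values from 89.8% to 96.1%. Tex19.1, which acts against retrotransposons in germ cells, had 9 CpGs at 91.1% to 99.5%.

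Piwil2, a PIWI protein that binds piRNAs, had 5 promoter CpGs at 94.7% to 99.3%, and Mov10l1, the helicase that makes piRNA precursors available, had 6 at 91.5% to 96.3%. Fkbp6, a cochaperone of the piRNA pathway, had 10 at 94.3% to 99.3%. In none of these 3 genes did the genotype means lie 5 percentage points apart. Asz1, a piRNA protein of germ cell mitochondria, had 5 CpGs at 100% and 96.8% in WT, 93.8% and 100% in hSTAT5B, and 96.8% and 90.4% in hSTAT5B N642H. The groups overlapped, and each library had 68 to 163 reads there.

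Tdrd1, a tudor protein that binds PIWI proteins, had the lowest promoter level among the genes without an unmethylated stretch. Its 21 CpGs averaged 87.5% and 82.8% in WT, 78.1% and 79.3% in hSTAT5B, and 76.8% and 85.2% in hSTAT5B N642H. The hSTAT5B libraries lay below the WT libraries, and the hSTAT5B N642H libraries spanned nearly the whole range. Single CpGs of Tdrd1 had means from 30.1% to 100%, with 6 of 21 between 20% and 80%. The CpG in an E-box 553 bp before its start ranged from 30.8% in an hSTAT5B library to 85.0% in a WT library.

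Dazl, an RNA-binding protein needed for germ cell development, had a promoter average close to 50% that was made up of a methylated and an unmethylated stretch. The 43 CpGs averaged 50.8% and 50.7% in WT, 51.5% and 50.7% in hSTAT5B, and 51.3% and 50.1% in hSTAT5B N642H. From 601 bp before to 434 bp after the start, 23 CpGs averaged 93.2% and 94.4% in WT, 94.1% and 93.4% in hSTAT5B, and 93.0% and 93.0% in hSTAT5B N642H. From 679 to 811 bp after the start, 20 CpGs of an intron averaged 1.96% and 0.474% in WT, 2.51% and 1.63% in hSTAT5B, and 3.24% and 0.667% in hSTAT5B N642H. The boundary lay between these stretches in every library, and no CpG of the unmethylated stretch had a mean over 10.5%. These stretches were set after the levels of the single CpGs were seen, so they carry no test.

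The sequences of both sides of the boundary are shown because the levels differ so widely over a short distance. The methylated stretch lies in the intron at chr17:50293202-50293357 and the unmethylated one at chr17:50292825-50292958 (GRCm38, minus strand), and capitals mark the measured CpGs. The 8 measured CpGs of the methylated stretch had means from 68.8% to 99.6%, and the 20 of the unmethylated stretch had means from 0% to 10.5%. The unmethylated stretch is richer in CpG than this intronic part of the methylated side. It has 14.9 CpGs per 100 bp and 79.1% GC, compared with 5.13 and 57.1%. The rest of the methylated side did not enter this comparison.
Dazl methylated stretch: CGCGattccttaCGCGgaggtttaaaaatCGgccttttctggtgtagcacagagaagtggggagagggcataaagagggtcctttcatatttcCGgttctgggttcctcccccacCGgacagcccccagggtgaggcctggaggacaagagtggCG
Dazl unmethylated stretch: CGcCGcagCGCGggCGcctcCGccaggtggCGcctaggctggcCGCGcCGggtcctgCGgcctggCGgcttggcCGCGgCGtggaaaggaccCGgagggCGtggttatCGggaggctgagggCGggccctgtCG

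The promoter of Dazl (chr17:50293587-50293886, minus strand) holds neither motif and is given for comparison with that of Ddx4. The measured CpGs of Dazl lie on both sides of this printed sequence and not within it.
Dazl: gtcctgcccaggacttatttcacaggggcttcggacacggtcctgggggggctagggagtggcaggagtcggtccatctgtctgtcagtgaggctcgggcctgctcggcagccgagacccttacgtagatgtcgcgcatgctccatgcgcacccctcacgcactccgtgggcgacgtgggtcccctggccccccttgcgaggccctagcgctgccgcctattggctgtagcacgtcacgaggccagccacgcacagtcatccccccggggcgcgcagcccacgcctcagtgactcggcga

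Tex15, a protein of meiotic recombination and piRNA-directed methylation, had the same arrangement at its annotated 5′ end. Its principal transcript starts 53806 bp downstream of that end, in a CpG-poor window without a measured CpG. Around the 5′ end, 27 CpGs averaged 27.0% and 26.4% in WT, 27.3% and 26.9% in hSTAT5B, and 27.5% and 28.9% in hSTAT5B N642H. The 7 CpGs from 66 to 18 bp before the 5′ end were at 95.1% to 99.4%, and the 20 CpGs from 492 to 937 bp after it were at 1.74% to 4.30%, each as the range over the libraries. The boundary again appeared in all 6 libraries, and no CpG was measured between the stretches. Both are printed with the measured CpGs in capitals, the methylated one from chr8:33516672-33516721 and the main part of the unmethylated one from chr8:33517230-33517346 (GRCm38, plus strand). The methylated stretch has 14 CpGs per 100 bp and 66% GC, and the printed unmethylated one 15.4 and 80.3%. Their CpG density thus differed less than that of the printed Dazl stretches.
Tex15 methylated stretch: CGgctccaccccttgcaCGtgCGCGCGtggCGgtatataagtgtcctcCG
Tex15 unmethylated stretch: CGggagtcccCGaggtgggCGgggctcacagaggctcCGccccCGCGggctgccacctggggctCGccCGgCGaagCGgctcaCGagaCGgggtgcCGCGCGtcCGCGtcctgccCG

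**Figure D2:**
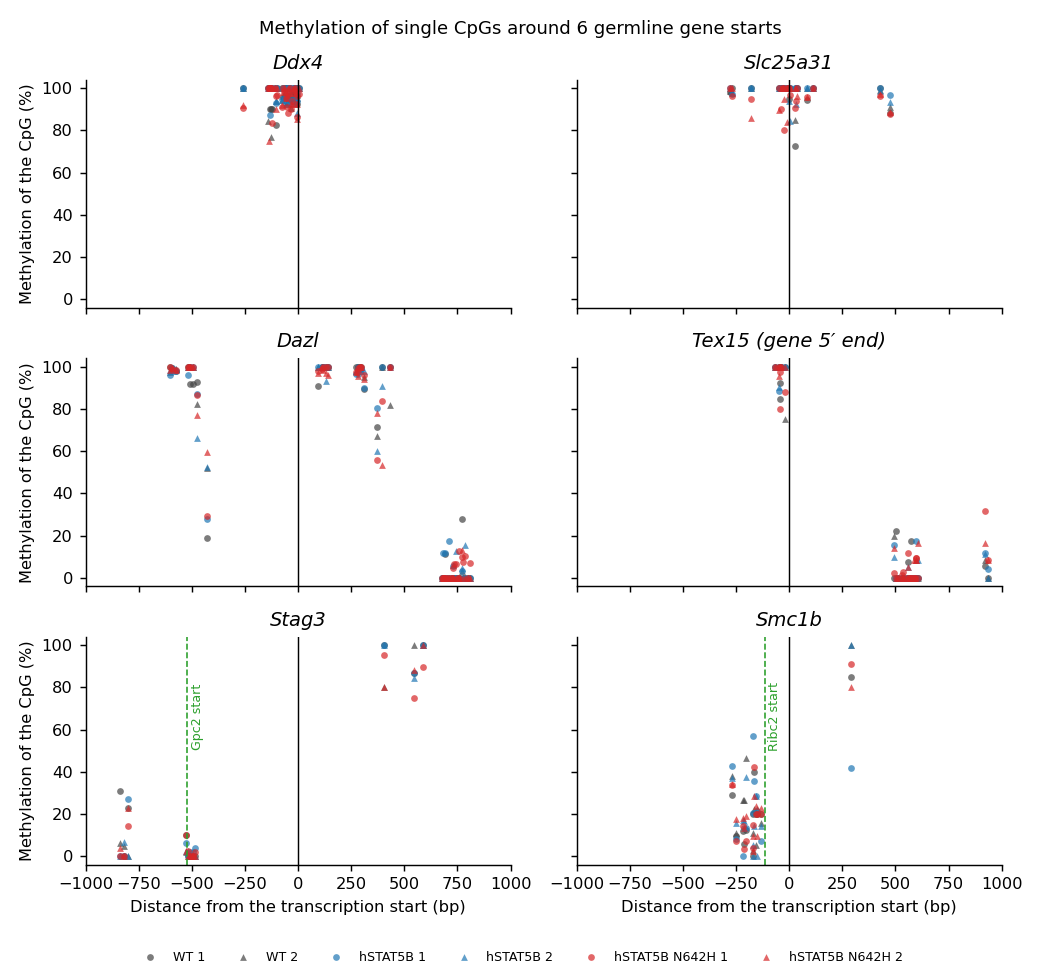
Methylation of each measured CpG (y axis, %) by its distance from the transcription start (x axis, bp; black line at the start) in 6 genes, with a point per library coloured by genotype. Ddx4 and Slc25a31 are methylated at every measured CpG. Dazl and Tex15 change from over 93% on average to under 5% within the window. The CpGs of low level in Stag3 and Smc1b lie near the start of a neighbouring gene (green dashed line).

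Among structural proteins of the meiotic chromosome axis and the synaptonemal complex, Sycp1, Sycp2, Sycp3, and Hormad1 were methylated. Sycp1, the transverse filament of the complex, had 19 CpGs at 91.6% to 93.6%. Hormad1, an axis protein, had 19 CpGs at 97.0% to 97.9%. Both varied little over the 6 libraries. Sycp3, a component of the lateral element, had 13 CpGs at 98.7% and 97.1% in WT, 94.8% and 94.2% in hSTAT5B, and 93.2% and 95.2% in hSTAT5B N642H, so that both WT libraries were above the other 4.

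Sycp2, the partner of Sycp3, had the widest spread. Its 5 CpGs, all from 181 to 209 bp after the start, averaged 76.4% and 92.5% in WT, 100% and 98.2% in hSTAT5B, and 95.6% and 88.6% in hSTAT5B N642H. The WT libraries differed from each other by more than the means of WT and hSTAT5B did, and the reads summed over the 5 CpGs ranged from 25 to 70 per library, the least after Meiob. Sequencing reads carried no molecular identifiers, so precision from read numbers covers counting error only.

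The meiotic cohesin subunits Smc1b and Stag3 were low in the window, and both share it with the start of another gene. Smc1b had 12 CpGs at 22.8% and 27.4% in WT, 24.2% and 23.9% in hSTAT5B, and 23.2% and 23.3% in hSTAT5B N642H. Of these, 11 lay from 267 to 130 bp before the start, beyond the start of Ribc2, which is 114 bp away on the opposite strand, and averaged 17.0% to 22.6% over the libraries. The only CpG inside Smc1b, 292 bp after the start, had a mean of 82.9% and 5 to 22 reads per library.

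Stag3 had 12 CpGs at 29.2% and 24.4% in WT, 27.4% and 24.7% in hSTAT5B, and 24.1% and 24.8% in hSTAT5B N642H. The 9 CpGs from 836 to 487 bp before its start surround the start of Gpc2, 521 bp away on the opposite strand, and averaged 1.27% to 7.12%. The 3 CpGs in its own intron, from 403 to 587 bp after the start, averaged 95.6% and 93.3% in WT, 95.7% and 94.9% in hSTAT5B, and 86.6% and 89.3% in hSTAT5B N642H, with 38 to 61 reads. In both genes the CpGs of low level thus lay on the side of the neighbour, and the window average describes both genes together. No other germline gene had another annotated protein-coding start in its window. The promoters of Smc1b (chr15:85131915-85132214, minus strand) and Stag3 (chr5:138280276-138280575, plus strand) are shown as those of the lowest levels with at least 10 CpGs.
Smc1b: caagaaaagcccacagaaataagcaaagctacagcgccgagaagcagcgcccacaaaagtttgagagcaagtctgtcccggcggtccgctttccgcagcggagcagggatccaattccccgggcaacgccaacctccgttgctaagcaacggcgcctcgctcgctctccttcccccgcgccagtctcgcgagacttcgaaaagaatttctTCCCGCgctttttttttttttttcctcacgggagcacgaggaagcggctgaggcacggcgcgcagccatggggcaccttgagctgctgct
Stag3: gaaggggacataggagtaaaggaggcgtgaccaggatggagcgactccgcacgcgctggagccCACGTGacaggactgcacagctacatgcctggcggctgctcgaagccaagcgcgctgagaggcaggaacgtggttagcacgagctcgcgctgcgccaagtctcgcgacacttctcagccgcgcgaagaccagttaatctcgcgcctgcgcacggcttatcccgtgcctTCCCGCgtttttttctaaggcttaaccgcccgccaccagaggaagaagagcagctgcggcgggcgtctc

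The E2F core is present in both of these promoters, and of the pair only that of Stag3 holds the E-box. All measured CpGs of Stag3 lie outside its printed sequence, and no CpG in the printed motifs of either gene was measured. A further E2F core, 519 bp before the start of Stag3 and next to the start of Gpc2, held a CpG with a mean of 0.839%. Over the 33 genes, an E-box was found in 15 promoters (45.5%), compared with 7.78% of all 20698 promoters and 10.6% of the 10429 in the high CpG class. The E2F core was found in 12 (36.4%), compared with 25.6% of all and 41.5% of the high class. Both motifs were found in Ddx4, Mael, Sycp1, Sycp3, Hormad1, Stag3, and Slc25a31, which is 21.2%, compared with 2.58% of all promoters and 4.46% of the high class. Within the windows, 10 measured CpGs lay in a motif, and apart from Stag3 and the E-box CpG of Tdrd1, all had means between 91.3% and 99.4%.

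Among genes of meiotic recombination, the level depended on which transcription start was taken. Spo11, the enzyme that cuts DNA to start recombination, had 17 CpGs around its principal start at 98.1% and 98.3% in WT, 97.4% and 97.9% in hSTAT5B, and 97.5% and 97.2% in hSTAT5B N642H. The gene's 5′ end lies 2149 bp upstream, where 2 CpGs were at 9.21% and 3.57% in WT, 0% and 16.6% in hSTAT5B, and 0% and 0% in hSTAT5B N642H, with 46 to 82 reads. The libraries at 0% allow up to 3.66% to 5.77% by the limit of 3 reads. The higher level is thus that of the exon and intron after the principal start.

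Mei1, needed for the same DNA breaks, had 5 promoter CpGs, all from 671 to 780 bp after its principal start. Mei1 was there at 96.4% and 97.0% in WT, 91.3% and 93.3% in hSTAT5B, and 91.8% and 96.2% in hSTAT5B N642H. At its 5′ end, 12480 bp upstream, 9 CpGs were at 34.7% and 41.9% in WT, 41.5% and 41.2% in hSTAT5B, and 32.4% and 27.6% in hSTAT5B N642H. Here the hSTAT5B N642H libraries were the lowest. Meiob, a single-strand DNA binding protein of meiotic recombination, had the lowest level of the set. Its 3 CpGs, from 108 to 129 bp after the start, were at 0% in 5 libraries and at 2.56% in the first hSTAT5B N642H library, with 18 to 39 reads per library. Counting the floor as 3 reads, a level of 0% allows up to 9.09% to 16.7% in these 5 libraries, so Meiob was low at this depth but not measured finely. Its promoter had no other coding start within 1 kb, and it was the only one of the 23 under 10%.

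The remaining genes act late in spermatogenesis or in germ and stem cells, and all were highly methylated. Dpep3, a membrane dipeptidase of the testis, had the highest level, with 6 CpGs at 98.7% and 99.2% in WT, 99.2% and 100% in hSTAT5B, and 99.8% and 99.4% in hSTAT5B N642H. Tuba3a, a testis α-tubulin, had 10 CpGs at 98.1% and 99.5% in WT, 98.8% and 100% in hSTAT5B, and 97.1% and 98.8% in hSTAT5B N642H. Slc25a31, the ADP/ATP carrier of germ cell mitochondria, had 19 CpGs at 97.3% and 98.5% in WT, 99.7% and 98.0% in hSTAT5B, and 95.9% and 96.4% in hSTAT5B N642H. In Slc25a31 both hSTAT5B N642H libraries were below the other 4, by a margin of less than 1 percentage point from the nearest WT library, whereas the groups of Tuba3a overlapped.

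Zfp42, also known as Rex1, a zinc finger protein of pluripotent and germ cells, had 11 CpGs at 89.0% to 94.4%. Tex101, a membrane protein of germ cells needed for sperm function, had 4 CpGs at 89.3% and 96.5% in WT, 97.7% and 95.3% in hSTAT5B, and 90.5% and 81.5% in hSTAT5B N642H. Its hSTAT5B N642H libraries were both below the hSTAT5B libraries but overlapped those of WT. Brdt, a bromodomain protein of spermatids, had 2 promoter CpGs at 95.0% to 99.4% and did not enter the counts. The promoters of Tuba3a (chr6:125285993-125286292, minus strand), Spo11 (chr2:172979599-172979898, plus strand), and Slc25a31 (chr3:40708605-40708904, plus strand) are shown as those of the 3 highest levels with at least 10 CpGs.
Tuba3a: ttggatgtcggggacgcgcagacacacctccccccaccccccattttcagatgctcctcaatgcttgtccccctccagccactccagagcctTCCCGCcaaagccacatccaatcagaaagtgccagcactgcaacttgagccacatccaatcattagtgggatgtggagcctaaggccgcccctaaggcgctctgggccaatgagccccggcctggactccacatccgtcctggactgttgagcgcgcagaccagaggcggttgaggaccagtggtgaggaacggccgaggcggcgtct
Spo11: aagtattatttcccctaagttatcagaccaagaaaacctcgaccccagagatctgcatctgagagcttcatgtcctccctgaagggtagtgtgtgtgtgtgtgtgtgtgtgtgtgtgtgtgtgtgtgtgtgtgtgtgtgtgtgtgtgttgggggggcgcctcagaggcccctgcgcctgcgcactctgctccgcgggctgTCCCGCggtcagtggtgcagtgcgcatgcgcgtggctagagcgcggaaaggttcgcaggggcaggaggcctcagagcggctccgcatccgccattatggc
Slc25a31: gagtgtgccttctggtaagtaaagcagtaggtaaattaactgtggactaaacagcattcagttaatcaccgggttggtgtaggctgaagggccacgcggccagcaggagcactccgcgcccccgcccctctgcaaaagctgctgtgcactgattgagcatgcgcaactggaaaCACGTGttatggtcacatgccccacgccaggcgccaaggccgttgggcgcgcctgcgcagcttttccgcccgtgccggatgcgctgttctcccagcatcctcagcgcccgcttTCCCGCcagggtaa

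Of these 3, only the promoter of Slc25a31 holds both motifs, with the CpG inside its E2F core, 39 bp after the start, at a mean of 99.4%. Tuba3a and Spo11, without an E-box, had levels as high as that of Slc25a31 around the principal start. The 17 measured CpGs of Spo11, from 152 to 502 bp after the start, lie outside its printed sequence. A bearing of the motifs on the level was not tested.

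**Figure D3:**
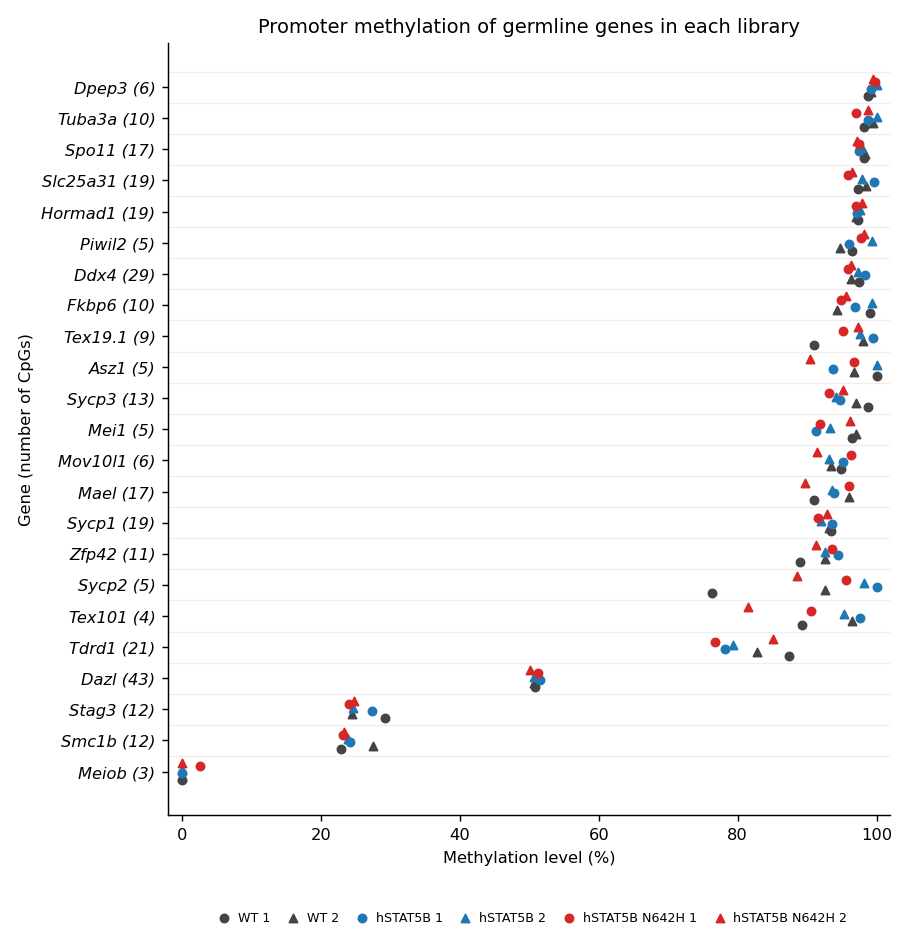
Promoter methylation level (x axis, %) of the 23 germline genes with at least 3 promoter CpGs (number of CpGs in parentheses), with a point for each of the 6 libraries, coloured by genotype. Of these genes, 19 lie above 76% in every library, Dazl lies at 50.1% to 51.5%, Stag3 and Smc1b lie between 22.8% and 29.2%, and Meiob lies at 0% to 2.56%.

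The question of the design was whether methylation differs with the transgene, and no germline promoter passed the test. In limma, fitted to the log2 ratio of methylated to unmethylated reads of all 13111 promoters, 0 of 23 germline promoters had an adjusted p under 0.05 in any of the 3 comparisons, and 0% of all promoters did. At an unadjusted p under 0.05, limma gave 803, 822, and 799 of all promoters, and 0, 2, and 2 of the germline promoters, for hSTAT5B N642H against WT, hSTAT5B against WT, and hSTAT5B N642H against hSTAT5B. A quasi-binomial model of the reads called 53, 4, and 26 of all promoters and 0 of the 23. Replicates were single mice, 2 per group, and the test measures the spread between them. The SE of the log2 ratio difference was 0.366 to 0.971 over the germline promoters, so small differences could not be told from 0, and the lack of calls does not show equal levels.

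Differences of 5 percentage points between genotype means were found in 2 of 23 promoters in each comparison, compared with 7.29% of all promoters for hSTAT5B N642H against WT, 6.24% for hSTAT5B against WT, and 7.44% for hSTAT5B N642H against hSTAT5B. These were Sycp2 and Tex101 for hSTAT5B N642H against WT, Sycp2 and Tdrd1 for hSTAT5B against WT, and Sycp2 and Tex101 for the comparison of both transgenes. The libraries of the 2 groups did not overlap in 7, 6, and 7 of 23 germline promoters in the same order, compared with 36.7%, 33.3%, and 36.3% of all promoters. In either direction together, these counts were near the shares of all promoters. Of the 23 germline promoters, 5, 4, and 7 did not overlap and were lower in the group named first. The same held for 15.1%, 15.5%, and 15.8% of all promoters. These were 1976 of the 4817 promoters that did not overlap, 2028 of 4371, and 2078 of 4759. For hSTAT5B N642H against hSTAT5B all 7 that did not overlap were thus lower in hSTAT5B N642H (Ddx4, Sycp2, Tex19.1, Smc1b, Tex101, Slc25a31, and Fkbp6). So were both promoters with a difference of 5 points, and 17 of 23 promoters whether or not they overlapped. The shares of all promoters that were lower in these ways were not counted, so these counts describe the set only. Most of all promoters were under 10% and most germline promoters over 90%, so the directions of the sets were not on a like scale. The median difference of the 23 promoters was -0.83, 0.22, and -0.81 percentage points, and that of all promoters was 0.143, 0.0699, and 0.0736. The 3 comparisons share libraries and are not independent of each other.

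The count of 2 promoters rested on single libraries. Without the first WT library it was 1 for both comparisons with WT, and without the second WT library it was 5 for both. Without the second hSTAT5B library it was 1 for hSTAT5B N642H against WT, since other CpGs then passed the read minimum, and 4 for hSTAT5B against WT. For hSTAT5B N642H against hSTAT5B it was 4 without the first library of either group and 1 without the second hSTAT5B N642H library.

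Sycp2 had the largest difference, 14.6 percentage points higher in hSTAT5B than in WT (log2 ratio difference 2.26, SE 0.655, adjusted p = 0.720 in limma). Without the first WT library this difference was 6.55 points, and without the second WT library it was 22.7. Tex101 differed by -10.5 points between hSTAT5B N642H and hSTAT5B, with a log2 ratio difference of -2.29 (SE 0.469, adjusted p = 0.790 in limma). The difference between hSTAT5B N642H and WT was -6.91 points, and the range over the alternatives for the comparison of both transgenes was -15.0 to -5.15 points. The difference of Tdrd1 between hSTAT5B and WT was -6.39 points, with a range of -8.74 to -4.04 over the alternatives. None of these differences passed the test. The difference of Mei1 between hSTAT5B and WT was -4.40 points as a mean over CpGs and 0.558 points with reads pooled over CpGs, so its sign depended on the weights.

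**Figure D4:**
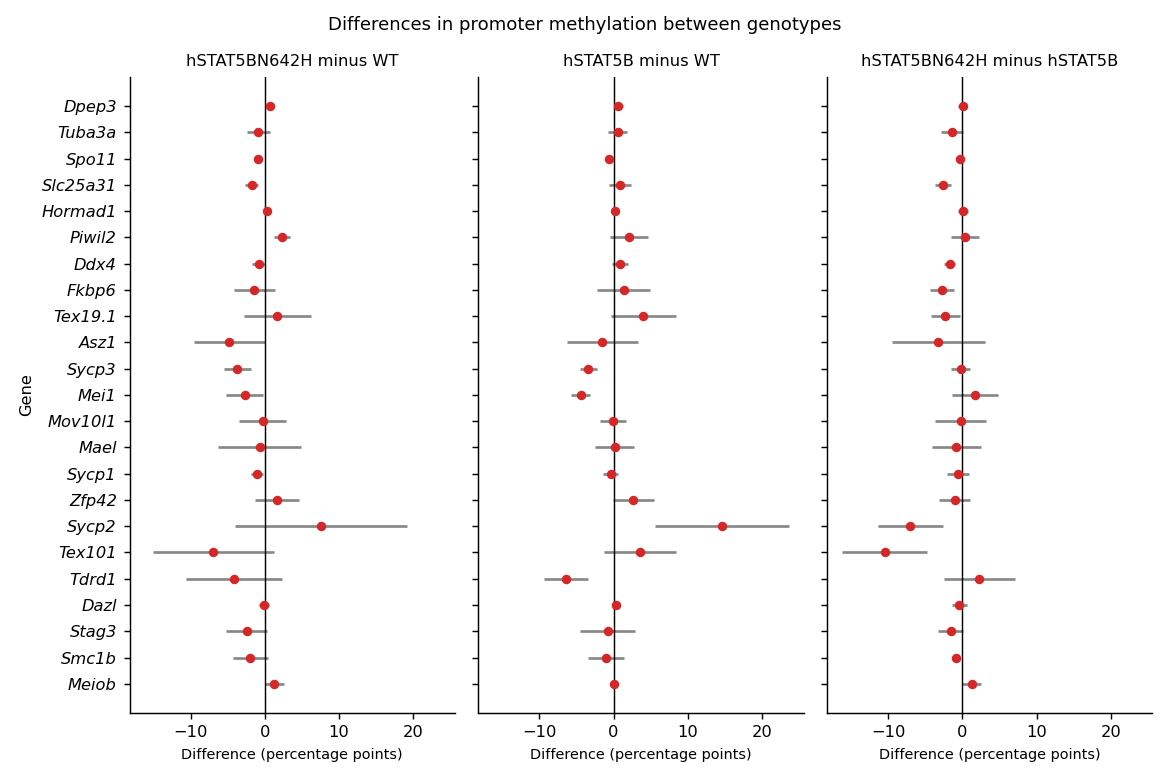
Difference in promoter level between genotypes (x axis, percentage points) for the 23 germline genes in the 3 comparisons, with the difference of the means as a red point and the lowest and highest difference between single libraries of both groups as a grey line. The widest lines belong to Sycp2 in both comparisons with WT and to Asz1 and Tex101 in the comparison of both transgenes, and the lines of most genes lie within 10 points of 0.

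The bodies of the germline genes were methylated to about the level of other genes. Of the 19 genes measured there, 11 were among the 23 with a measured promoter. The median over the 19 genes was 91.2% ± 0.253 in WT, 91.7% ± 1.23 in hSTAT5B, and 90.8% ± 0.189 in hSTAT5B N642H (SD, n = 2), and over all 13814 gene bodies it was 89.3% ± 0.403, 89.5% ± 0.0555, and 88.4% ± 0.127. Of the 11 genes measured in both windows, 8 had a lower body than promoter level, with a median difference of -3.97 percentage points. Spo11, Mei1, and Fkbp6 had the lowest bodies relative to their promoters. The body windows of Spo11 and Mei1 hold the 2 and 9 CpGs at their 5′ ends described above. These CpGs had means of 4.90% and 36.6% and lower the body levels given here. The body of Spo11 (8 CpGs) was at 71.8% and 67.2% in WT, 70.0% and 74.3% in hSTAT5B, and 69.0% and 65.0% in hSTAT5B N642H, with a mean of 69.5% compared with 97.8% at the promoter. That of Mei1 (41 CpGs) was at 74.0% and 75.8% in WT, 74.7% and 76.4% in hSTAT5B, and 73.6% and 71.1% in hSTAT5B N642H. That of Fkbp6 (7 CpGs) was at 76.9% and 78.6% in WT, 75.3% and 80.2% in hSTAT5B, and 73.4% and 78.3% in hSTAT5B N642H. The groups overlapped in Fkbp6, whereas both hSTAT5B N642H libraries of Mei1 were the lowest. The 9 CpGs at the 5′ end of Mei1, also lowest in hSTAT5B N642H, are among these 41 CpGs. The 2 observations on Mei1 are therefore not separate.

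The body was the higher in Stag3, Tdrd1, and Zfp42, by 72.1, 8.86, and 3.07 points. The body of Stag3 (8 CpGs) was at 96.9% and 96.4% in WT, 98.7% and 97.8% in hSTAT5B, and 97.6% and 100% in hSTAT5B N642H, far above the window shared with Gpc2. That of Tdrd1 (31 CpGs) was at 91.4% and 91.1% in WT, 89.9% and 90.7% in hSTAT5B, and 89.0% and 90.7% in hSTAT5B N642H. That of Zfp42 (12 CpGs) was at 93.1% and 97.1% in WT, 94.6% and 98.1% in hSTAT5B, and 92.9% and 96.0% in hSTAT5B N642H, and its groups overlapped.

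Several genes without a promoter CpG were measured here. Piwil1, the PIWI protein of later spermatogenesis, had 23 body CpGs at 87.8% and 89.2% in WT, 89.5% and 91.7% in hSTAT5B, and 91.6% and 90.6% in hSTAT5B N642H, with both WT libraries the lowest, and 3 CpGs around its 5′ end at 80.9% to 96.5%. Syce1, a central element protein of the synaptonemal complex, Stk31, a tudor protein of the testis, and Dnmt3l, the cofactor of DNA methylation in germ cells, had 6 to 8 body CpGs at 93.7% to 99.5%. Msh4, which stabilizes crossover intermediates, had 14 at 77.2% to 84.9%. Tex15 had 36 at 35.6% to 38.1%, and the unmethylated stretch after its 5′ end lies within this body window. Rec8, the meiotic kleisin of cohesin, had 2 body CpGs at 86.5% to 100%.

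No gene body of the set passed the test between genotypes. In limma, 0 of 19 had an adjusted p under 0.05 in any comparison, as did 0% of all 13814, with unadjusted p under 0.05 in 1149, 844, and 1149 of all gene bodies and in 3, 1, and 4 of the set, in the order of the comparisons above. A quasi-binomial model called 72, 1, and 58 of all gene bodies and 0 of the 19. Means at least 5 points apart were found in 1, 0, and 3 of 19, compared with 10.3%, 7.29%, and 9.43% of all gene bodies, and libraries did not overlap in 8, 6, and 7 of 19, compared with 42.8%, 33.6%, and 41.9%. Of the 19 bodies, 5, 2, and 6 did not overlap and were lower in the group named first. The same held for 28.8%, 15.5%, and 29.6% of all gene bodies. These were 3973 of the 5915 gene bodies that did not overlap, 2144 of 4646, and 4093 of 5782. The SE of the log2 ratio difference was 0.198 to 1.13, and the lack of calls does not show equal levels.

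Syce1 had the smallest adjusted p among the bodies of the set. Its 6 CpGs were at 94.9% and 98.2% in WT, 98.7% and 95.4% in hSTAT5B, and 99.3% and 99.5% in hSTAT5B N642H, so that both hSTAT5B N642H libraries were the highest (log2 ratio difference 1.65, SE 0.290, adjusted p = 0.391 in limma against WT). The difference of these means was 2.87 points, with a range of -1.26 to 4.53 over the alternatives, so its sign depended on the processing.

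Stra8, the retinoic acid target that starts meiosis, had the largest difference in the body in percentage points. Its 5 body CpGs were at 100% in all 4 WT and hSTAT5B libraries and at 96.7% and 82.7% in hSTAT5B N642H, with 50 to 101 reads, so most of the difference of -10.3 points was in a single library (adjusted p = 0.492 in limma against WT). The body of Brdt, with 12 CpGs, was at 96.7% and 95.3% in WT, 97.4% and 97.3% in hSTAT5B, and 90.9% and 92.6% in hSTAT5B N642H, and both hSTAT5B N642H libraries were the lowest (adjusted p = 0.593 in limma against WT). The body of Sycp1, with 53 CpGs and 1109 to 1990 reads per library, was at 90.5% and 90.7% in WT, 93.7% and 93.5% in hSTAT5B, and 90.2% and 89.8% in hSTAT5B N642H. Its hSTAT5B libraries were the highest, with close replicates (adjusted p = 0.799 in limma against WT).

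**Figure D5:**
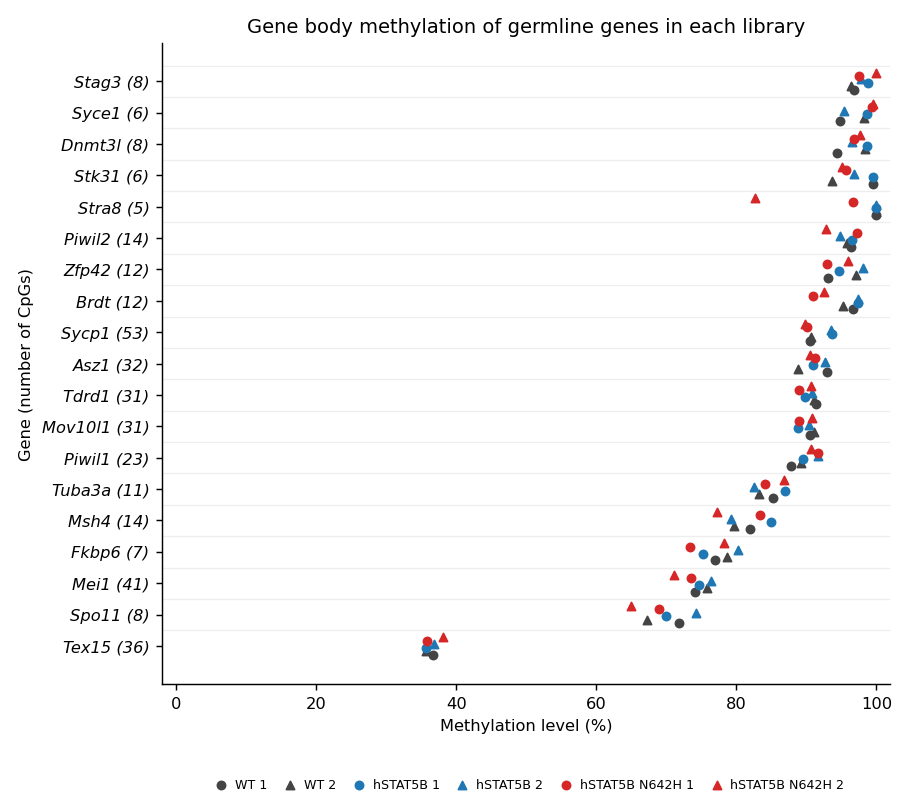
Gene body methylation level (x axis, %) of the 19 germline genes with at least 3 CpGs outside the promoter window (number of CpGs in parentheses), with a point for each library, coloured by genotype. Of these genes, 18 lie at 65% or more in every library, Tex15 lies between 35.6% and 38.1%, and the second hSTAT5B N642H library of Stra8 stands apart at 82.7%.

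Other germline genes that are no members of the set were less uniform. Of a list of 46 such genes, 28 had 3 promoter CpGs, 16 of them were at 50% or more in all 6 libraries, 8 were under 10%, and 4 lay between, with a median of 78.7%. Tuba3b, a second testis α-tubulin, had a mean of 98.7%, Sohlh2, a transcription factor of spermatogonia, 96.6%, and Tex14, a protein of germ cell bridges, 98.6%. In contrast, Ddx25, a testis RNA helicase, had 1.81%, Hspa2, a testis heat shock protein, 1.80%, and Hfm1, a meiotic helicase, 1.89%. Of 15 regulators of germline genes, 13 were measured, and 11 were under 10% in all libraries, among them E2f6, Mga, Max, and Dnmt1, with a median of 2.06%. The exceptions were Uhrf1, which guides maintenance methylation and had a mean of 33.6%, and the histone methyltransferase Setdb1. Setdb1 had a mean of 6.46% and exceeded 10% only in the second hSTAT5B library, at 11.8%.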

How the data were processed

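RRBS libraries of CD8+ T cells (2 per genotype) were analysed. The authors used Trimmomatic for trimming, BSMAP (RRBS mode, GRCm38) for alignment, and their own Python code for CpG calls, with versions not given in the sources used here. The deposited files give methylated and all read counts per CpG, not normalized, with both strands combined, and a score per CpG, the methylated share multiplied up to 1000, which served only to check the counts.

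Genes and starts were taken from GENCODE M21 and sequences from GRCm38.p6. Genotypes were compared with limma (3.58.1, R 4.3.3) on log2((methylated + 1)/(unmethylated + 1)) of reads summed per window with at least 3 CpGs, in a single model of all 6 libraries, and p-values were adjusted over all windows by Benjamini-Hochberg at 0.05. In tests on simulated data limma recovered large changes and missed changes of 10 percentage points. The lack of calls therefore says little about differences of that size or less. Per-library values are given at least for the 4 highest and 4 lowest promoters, promoter levels between 20% and 80%, and the 3 largest differences per comparison or between body and promoter; other named genes were chosen after their values were seen. The members and lists were chosen with earlier results of these data known. Alternatives were 1 or 10 reads per CpG, windows of 500 bp, the 5′ end of the gene as start, CpGs of 1000 or more reads left out, pooled reads, at least 10 CpGs, an offset of 0.5, a mean-variance trend, a quasi-binomial model, fits to the genotypes compared alone, a replicate block, and each library left out. The stretches within windows were added after seeing the data.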

Additional observations from a re-analysis of the deposited data

How the results depend on the processing

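The number of germline promoters at 50% or more in all libraries was 17 to 21 with other read minimums, windows, starts, depth limits, weights, or a library left out, compared with 20, and was 17 with a limit of 80%. The median promoter level was 93.5% at the 5′ end of the gene and 94.7% to 95.9% otherwise. The median body level was 92.0% with 10 reads per CpG, 89.8% with 1 read, and 92.7% with pooled reads, compared with 91.2%. At a difference of 10 percentage points, 0, 1, and 1 promoters differed for hSTAT5B N642H against WT, hSTAT5B against WT, and hSTAT5B N642H against hSTAT5B, and with 10 reads per CpG, 1 promoter did at 5 points in the first and the last of these. Without single libraries the counts were 1 to 5, 1 to 5, and 1 to 4.

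The quasi-binomial model called 53, 4, and 26 promoters and 72, 1, and 58 gene bodies, where limma called 0. With at least 10 CpGs, limma called 1, 1, and 0 gene bodies, and with a mean-variance trend 2, 1, and 0. Under all these alternatives 0 germline genes were called. The cause of the differences was not tested. With the replicate number as a replicate block, limma called 0 in all 6 comparisons. Same-numbered libraries did not deviate together (r of -0.013, 0.00074, and 0.011 across 13111 promoters, which are not independent). Most of these promoters were under 10% methylated, so these correlations could not exclude a weak effect shared by same-numbered libraries. RRBS reads few CpGs per promoter, and 10 of 33 genes could not be counted. Meiob and Sycp2 rest on the fewest reads.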
